A study of Homo sapiens with 4 samples.

Results

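The fibroblast growth factor (FGF) genes described here are 8 of the 17791 genes in the count table: the ligands FGF2, FGF5 and FGF7, the carrier protein FGFBP1 and the receptors FGFR1, FGFR2, FGFR3 and FGFR4. They were chosen by gene symbol, and all 8 had a row. The RNA came from engineered prostate cancer tissues, human cells held in a poly(ethylene glycol)-fibrinogen hydrogel, at day 15 of culture with no drug treatment. LNCaP is a line from a lymph node metastasis that the submitters call androgen-dependent, PC-3 is a line from a bone metastasis that they call castration-resistant, and BJ-5ta is a fibroblast line immortalised with telomerase. The 4 groups of 1 library were LNCaP with BJ-5ta (LNCaP coculture), LNCaP alone (LNCaP monoculture), PC-3 with BJ-5ta (PC-3 coculture) and PC-3 alone (PC-3 monoculture), and both cocultures were labelled 5 cancer cells to 1 fibroblast. RNA came from several tissues, but whether it was pooled is not given. The growth protocol describes PC-3 tissues for all 4 samples and several amounts of added crosslinker, so the medium of the LNCaP tissues and the gel of each library are not known. No library of BJ-5ta alone was analysed here.

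FGFs are secreted proteins that bind heparan sulphate on cell surfaces and in matrix, and that activate receptor tyrosine kinases, which in turn drive ERK signalling. Many are signals between stroma and epithelium: FGF7, also called keratinocyte growth factor, is made by mesenchymal cells and binds the epithelial splice form of FGFR2. FGF2 lacks a classical secretion signal and is stored in matrix, from which FGFBP1 can release it, and FGF5 is best known as a regulator of the hair cycle. The question the design sets is what fibroblasts at a fixed ratio do in tissues of either line, and here it is put to the ligands, their carrier and their receptors.

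Total counts lay between 15520243 and 15865690 a library, and 3 counts equalled 0.188 to 0.193 CPM (counts per 1000000 counts after TMM scaling). With 1 library a group there was no replicate, so no difference was tested, each fold compares 2 libraries, and every interval is a 95% interval for counting error only. The line labels were checked on markers. KLK3, prostate-specific antigen, had 74134 counts in LNCaP coculture and 60226 in LNCaP monoculture, against 0 in either PC-3 library. Of the 10 luminal prostate markers listed, which include KLK3, 7 were at least 2-fold higher in LNCaP than in PC-3 monoculture and 0 lower. KRT8, KRT18 and HOXB13 did not separate the lines, at 616, 453 and 633 CPM in LNCaP and 852, 547 and 668 in PC-3 monoculture. Of 19 fibroblast markers in the table, 18 were at 1 count or more in LNCaP coculture and 10 in LNCaP monoculture, with summed levels of 985 and 11.1 CPM. In PC-3 tissues 19 were at 1 count or more in the coculture and 16 in the monoculture, with sums of 932 and 412 CPM, so part of the list was also present without fibroblasts. MMP2, a gelatinase of that list, was at 1779 and 617 counts in the LNCaP and PC-3 cocultures and at 0 in either monoculture.

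RefSeq promoter windows (build GRCh38.p14, 250 bases before to 50 after a start) were found for 7 of the 8 genes, all but FGFR1. Those of the 4 genes that differed most between the lines when grown alone are printed with each CG dinucleotide in capitals, to show their CG content. They are FGFBP1 (chr4:15938691-15938990, minus strand), FGF2 (chr4:122826581-122826880, plus strand), FGF5 at the first of its 2 listed starts (chr4:80266338-80266637, plus strand) and FGFR3 (chr4:1793043-1793342, plus strand).
FGFBP1: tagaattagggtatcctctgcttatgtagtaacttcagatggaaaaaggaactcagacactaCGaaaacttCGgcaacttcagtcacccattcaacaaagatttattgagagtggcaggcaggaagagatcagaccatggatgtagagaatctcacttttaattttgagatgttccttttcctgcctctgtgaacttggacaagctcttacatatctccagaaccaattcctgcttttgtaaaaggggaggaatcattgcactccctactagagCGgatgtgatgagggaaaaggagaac
FGF2: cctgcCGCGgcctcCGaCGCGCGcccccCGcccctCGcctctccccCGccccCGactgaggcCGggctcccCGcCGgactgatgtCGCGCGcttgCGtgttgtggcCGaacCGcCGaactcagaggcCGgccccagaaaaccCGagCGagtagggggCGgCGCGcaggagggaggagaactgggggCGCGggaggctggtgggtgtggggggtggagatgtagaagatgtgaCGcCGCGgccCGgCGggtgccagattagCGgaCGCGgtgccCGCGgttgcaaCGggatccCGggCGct
FGF5: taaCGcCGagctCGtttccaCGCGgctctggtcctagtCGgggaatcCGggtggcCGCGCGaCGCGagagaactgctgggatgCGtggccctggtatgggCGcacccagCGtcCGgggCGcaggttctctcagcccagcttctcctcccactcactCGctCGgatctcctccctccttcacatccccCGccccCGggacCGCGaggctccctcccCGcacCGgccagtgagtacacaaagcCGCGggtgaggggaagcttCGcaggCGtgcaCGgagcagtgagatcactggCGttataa
FGFR3: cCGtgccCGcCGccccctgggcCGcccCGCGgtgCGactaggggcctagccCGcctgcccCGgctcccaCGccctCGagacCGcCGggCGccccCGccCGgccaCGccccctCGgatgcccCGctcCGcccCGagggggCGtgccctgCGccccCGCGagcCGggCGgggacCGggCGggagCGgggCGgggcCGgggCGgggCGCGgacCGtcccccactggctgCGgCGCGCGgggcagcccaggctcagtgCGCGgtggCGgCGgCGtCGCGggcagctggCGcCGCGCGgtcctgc
The windows held 3 CG dinucleotides (FGFBP1), 41 (FGF2), 31 (FGF5) and 51 (FGFR3), where the median of 35116 human windows of this length was 14. The second start of FGF5, not printed, had 6. GGGCGG, searched on both strands, was present in the windows of FGF2, FGF5 and FGFR3 and not in that of FGFBP1, and 45.0% of all windows held it. TATAAA (in 11.5% of all windows) and TGANTCA (in 7.71%), also searched on both strands and overlapping with neither each other nor GGGCGG, were in none of the 4. The window of the second FGF5 start, unlike the printed one, held TATAAA and no GGGCGG, and it too lacked TGANTCA. All of these are letter matches in the reference and not measured binding.

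FGF2 and FGFBP1 were the members furthest apart between the monocultures of the lines. FGF2 (chromosome 4, 122826708 to 122898236, GENCODE release 29 on GRCh38) had 41 counts in LNCaP coculture, 8 in LNCaP monoculture, 427 in PC-3 coculture and 474 in PC-3 monoculture, or 2.64, 0.507, 27.2 and 29.7 CPM. Both PC-3 libraries were far above both LNCaP libraries, and within LNCaP the coculture was the higher. FGFBP1 (chromosome 4, 15935569 to 15938740) was at 0 counts in LNCaP coculture and in LNCaP monoculture, against 396 in PC-3 coculture and 403 in PC-3 monoculture (25.3 and 25.2 CPM). The carrier was thus detected in PC-3 tissues only, with and without fibroblasts. In LNCaP coculture the floor of 3 counts was 0.193 CPM, and the exact upper limit for its count of 0 was 0.238 CPM.

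FGF5 (chromosome 4, 80266599 to 80336680) had 35 counts in LNCaP coculture, 0 in LNCaP monoculture, 39 in PC-3 coculture and 58 in PC-3 monoculture, or 2.26, 0, 2.49 and 3.63 CPM. The LNCaP monoculture alone lacked it, and the other libraries lay within a narrow range. FGF7 (chromosome 15, 49423096 to 49488775) was below 1 CPM throughout, with 9 counts in LNCaP coculture, 0 in LNCaP monoculture, 7 in PC-3 coculture and 3 in PC-3 monoculture. Among the pairs of libraries compared here, FGF7 differed beyond counting error only between LNCaP coculture and LNCaP monoculture (exact lower limit of the ratio 2.01). Between the monocultures, 0 against 3 counts, the exact interval of LNCaP over PC-3 was 0 to 2.45 and included 1.

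The FGF7 row also shares sequence with copies of the gene. Rows named FGF7P3 and FGF7P6, pseudogenes on chromosome 9, held 262 and 142 counts in LNCaP coculture, 295 and 196 in LNCaP monoculture, 28 and 35 in PC-3 coculture and 18 and 56 in PC-3 monoculture. Of all 50-base stretches of FGF7 transcripts, 9.28% occurred in at least 1 copy, and of those of FGF7P3 and FGF7P6, 23.1% and 15.7% occurred in FGF7. The FGF7 values are therefore uncertain, since how reads shared between copies were counted is not given in the sources used here.

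**Figure D1:**
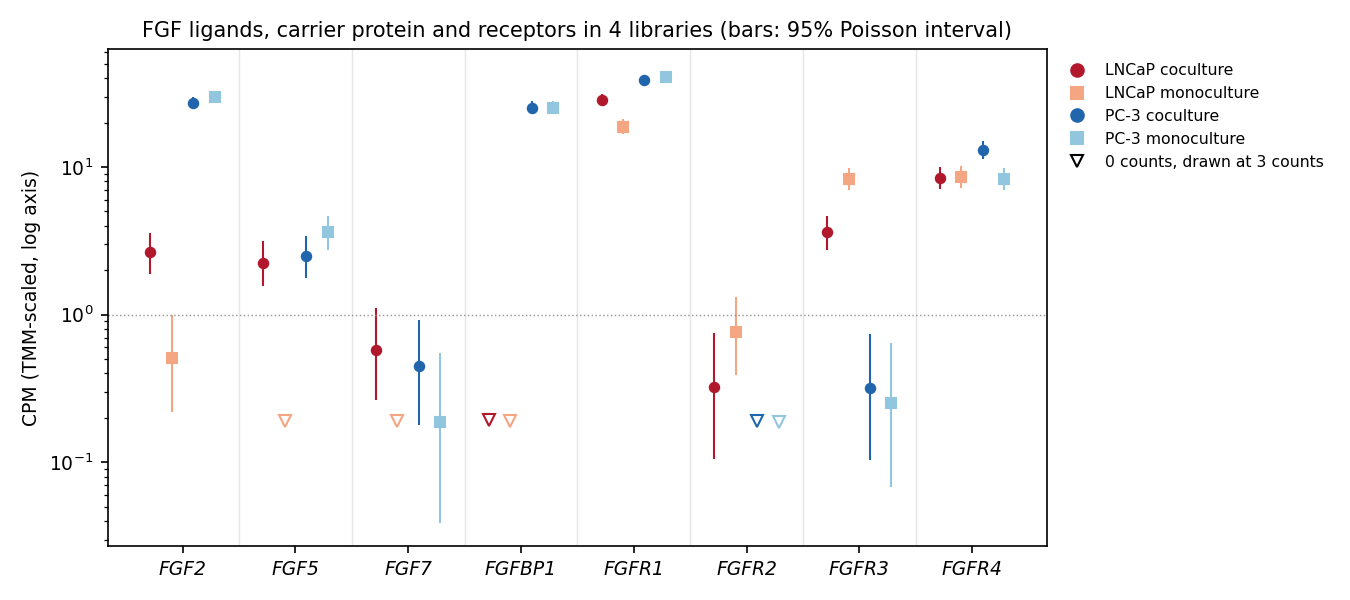
Level of each of the 8 genes in CPM on a log axis, 1 point per library with its 95% Poisson interval; open triangles mark 0 counts, drawn at the limit of 3 counts, and the dotted line is 1 CPM. FGF2 and FGFBP1 were above 25 CPM in both PC-3 libraries, whereas FGFR1 and FGFR4 were above 8 CPM in all 4.

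FGFR1 was the receptor with the highest level per kilobase of exon in every library, although in LNCaP monoculture its interval overlapped that of FGFR4. It had 444 counts in LNCaP coculture, 296 in LNCaP monoculture, 611 in PC-3 coculture and 653 in PC-3 monoculture, or 28.6, 18.7, 39.0 and 40.9 CPM. The PC-3 libraries were the higher pair, and the LNCaP coculture lay between them and the LNCaP monoculture. FGFR4 (chromosome 5, 177086886 to 177098144), a receptor that responds to FGF19 together with the coreceptor KLB, had 131, 135, 206 and 133 counts in the same libraries, or 8.45, 8.55, 13.1 and 8.33 CPM. The PC-3 coculture stood above the others, which lay within each other's intervals.

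FGFR3 was higher in LNCaP than in PC-3 libraries, and FGFR2 was low in all 4. FGFR3 (chromosome 4, 1793293 to 1808872), which binds several FGFs and restrains bone growth, had 56 counts in LNCaP coculture, 132 in LNCaP monoculture, 5 in PC-3 coculture and 4 in PC-3 monoculture, or 3.61, 8.36, 0.319 and 0.251 CPM. FGFR2 (chromosome 10, 121478334 to 121598458), the receptor of FGF7 in its epithelial form, had 5 counts in LNCaP coculture, 12 in LNCaP monoculture and 0 in either PC-3 library. FGFR2 was thus below 1 CPM everywhere. Between the cocultures it was at least 1.68-fold higher in LNCaP against the floor of 3 counts, but the exact lower limit of that ratio, 0.926, was below 1. Gene-level counts do not separate its epithelial from its mesenchymal form.

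The makeup of the receptor counts differed between lines and, in tissues of either line, with fibroblasts. Shares of counts follow transcript length, so each is used here to compare 1 receptor across libraries. FGFR3 took 8.81% of the FGFR1 to FGFR4 counts in LNCaP coculture (exact binomial interval 6.72 to 11.3%) and 23.0% in LNCaP monoculture (19.6 to 26.6%). It took 0.608% in PC-3 coculture (0.198 to 1.41%) and 0.506% in PC-3 monoculture (0.138 to 1.29%). FGFR1 took 69.8% (66.1 to 73.4%) in LNCaP coculture and 51.5% (47.3 to 55.6%) in LNCaP monoculture, so the intervals of the LNCaP libraries were apart for both receptors. In PC-3 tissues the order was the opposite one, with FGFR1 at 74.3% (71.2 to 77.3%) in the coculture and 82.7% (79.8 to 85.2%) in the monoculture. FGFR4 took 25.1% (22.1 to 28.2%) in PC-3 coculture and 16.8% (14.3 to 19.6%) in PC-3 monoculture. The intervals of the PC-3 libraries were thus apart for FGFR1 and FGFR4. Per kilobase of exon, FGFR1 made up 55.6% of the receptor level in LNCaP coculture, 38.1% in LNCaP monoculture, 58.8% in PC-3 coculture and 70.2% in PC-3 monoculture. FGFR4 made up 33.5%, 35.5%, 40.5% and 29.2% on that scale in the same libraries, and FGFR3 10.3%, 24.9%, 0.704% and 0.629%. The summed level of the receptors differed less than its makeup, at 41.0 CPM (37.9 to 44.3) in LNCaP coculture, 36.4 (33.5 to 39.5) in LNCaP monoculture, 52.5 (48.9 to 56.2) in PC-3 coculture and 49.5 (46.1 to 53.1) in PC-3 monoculture.

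**Figure D2:**
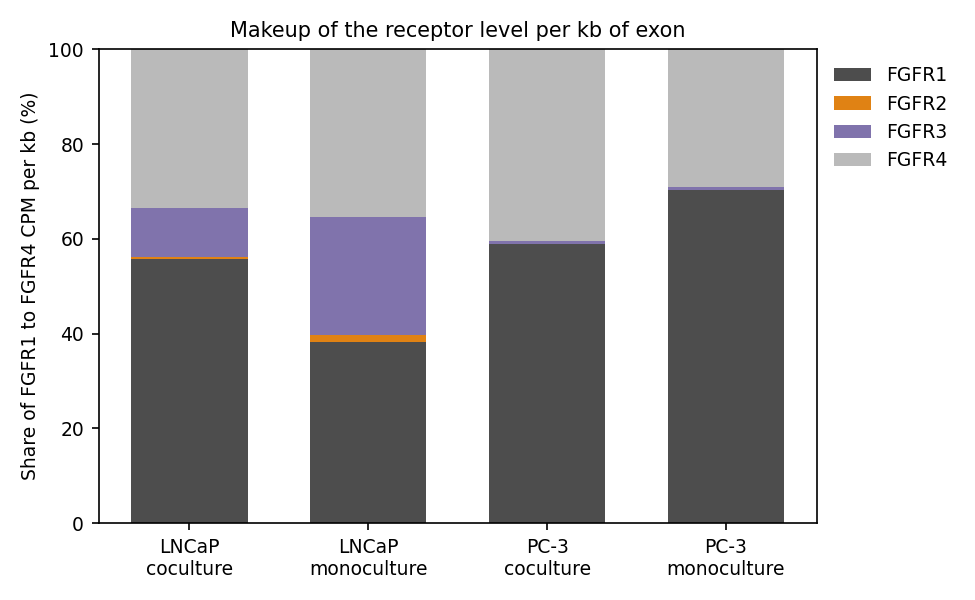
Share of the summed FGFR1 to FGFR4 level in CPM per kb made up by each receptor, in percent, 1 stacked bar per library. FGFR3 made up 10.3% in LNCaP coculture and 24.9% in LNCaP monoculture, and under 1% in either PC-3 library.

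The order of all 8 genes was taken per kilobase of annotated exon (the union of GENCODE basic transcripts, 1.36 kb for FGFBP1 and 6.78 kb for FGF2). In the LNCaP coculture the order in CPM per kb was FGFR1 (4.39), FGFR4 (2.64), FGFR3 (0.809), FGF5 (0.420), FGF2 (0.390), FGF7 (0.0907), FGFR2 (0.0481) and FGFBP1 (0). There the intervals of FGF5 and FGF2 overlapped, as did those of FGF7 and FGFR2. In the LNCaP monoculture FGFR1 (2.88 CPM per kb) and FGFR4 (2.67) had overlapping intervals, and FGFR3 (1.87), FGFR2 (0.113) and FGF2 (0.0748) followed.

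FGFBP1 led the order in PC-3 tissues. In the PC-3 coculture it was at 18.6 CPM per kb, followed by FGFR1 (5.98), FGFR4 (4.11) and FGF2 (4.02), then FGF5 (0.463), FGFR3 (0.0715), FGF7 (0.0698) and FGFR2 (0). In the PC-3 monoculture FGFBP1 was again at 18.6 CPM per kb, followed by FGFR1 (6.28), FGF2 (4.38), FGFR4 (2.61), FGF5 (0.676), FGFR3 (0.0562), FGF7 (0.0294) and FGFR2 (0). The intervals of FGFR4 and FGF2 overlapped in PC-3 coculture and were apart in PC-3 monoculture. FGFBP1 was above 77.5% of genes with a length in PC-3 coculture and above 77.4% in PC-3 monoculture, whereas FGFR1 was near the middle, above 51.9% and 53.4%.

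LNCaP tissues were compared with PC-3 tissues within each culture type. In monoculture, FGF2 was 58.6-fold lower in LNCaP (29.5 to 137), FGFBP1 at least 133-fold lower and FGF5 at least 19.1-fold lower. Each bound is set against 3 counts in the library at 0. The exact upper limits of the ratio of LNCaP over PC-3 were 0.0093 for FGFBP1 and 0.0664 for FGF5. FGFR1 was 2.18-fold lower (1.90 to 2.51), FGFR3 33.4-fold higher (12.7 to 124) and FGFR2 at least 4.04-fold higher (exact lower limit 2.81). The fold of FGFR4 was 1.03 (0.802 to 1.31), so a difference in either direction was not detectable at this depth. Of the 6 members that were measured (1 CPM or more in either library), 1 was at least 2-fold higher and 4 at least 2-fold lower. Of all 15160 such genes, 22.1% were at least 2-fold higher and 23.6% at least 2-fold lower (45.7% in either direction), so differences of this size were common between the lines. FGF2, FGF5 and FGFBP1 reached 1 CPM only in PC-3 monoculture, and FGFR3 only in LNCaP monoculture. None of these could be counted in the other direction, so the count over members is a description.

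With fibroblasts present, the fold between the lines was nearer to 1 for FGF2, FGF5, FGFR1 and FGFR3, although the intervals of FGFR3 overlapped. Between the cocultures FGF2 was 10.3-fold lower in LNCaP (7.47 to 14.6), FGFR3 11.3-fold higher (4.57 to 36.2) and FGFR1 1.36-fold lower (1.20 to 1.54). FGF5 had a fold of 0.907 (0.558 to 1.47), within counting error, where the monocultures had differed at least 19.1-fold against the floor of 3 counts. FGFBP1 was still at least 131-fold lower in LNCaP against that floor (exact upper limit of the ratio 0.0095). FGFR4 was 1.56-fold lower (1.24 to 1.95) in LNCaP coculture. Of 6 members measured, 1 was at least 2-fold higher and 2 at least 2-fold lower, against 20.7% and 23.6% of 15155 genes (44.3% in either direction). FGFR3 reached 1 CPM only in LNCaP coculture and FGFBP1 only in PC-3 coculture, so neither could be counted in the other direction. These comparisons share libraries with those of coculture against monoculture, so they are not independent of them.

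**Figure D3:**
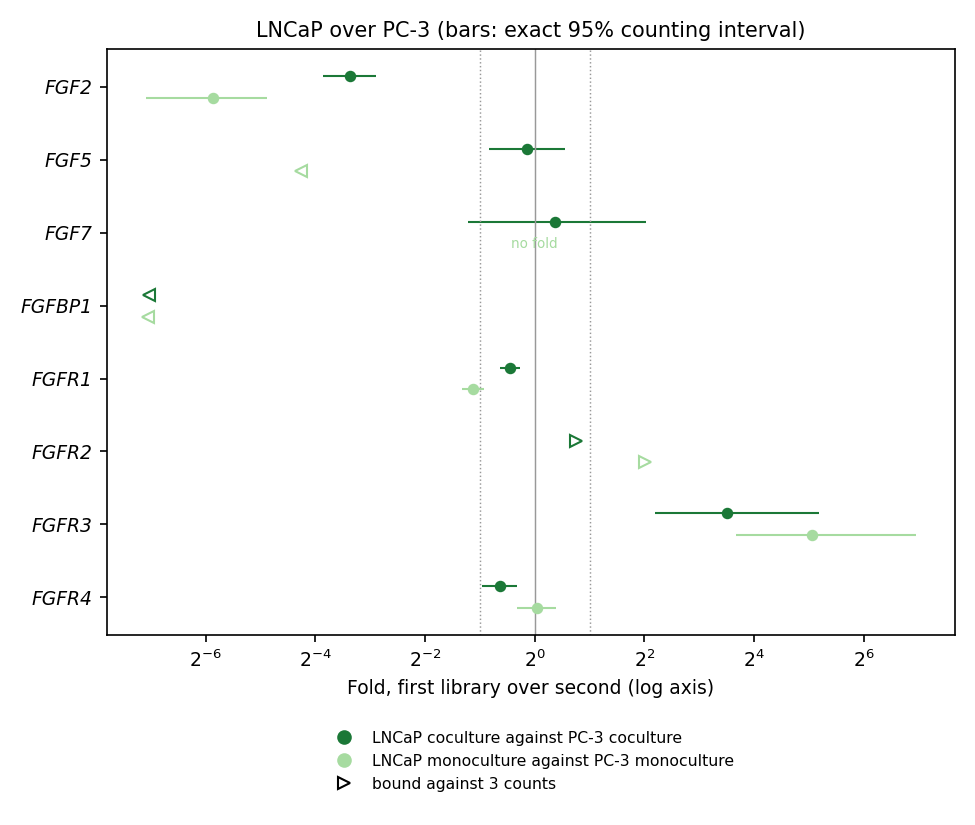
Fold of LNCaP over PC-3 for each gene on a log axis, cocultures above monocultures in each row, with exact 95% counting intervals; open triangles are bounds against 3 counts, and dotted lines mark 2-fold. FGFR3 was 11.3-fold and 33.4-fold higher in LNCaP, FGF2 10.3-fold and 58.6-fold lower.

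In LNCaP tissues the FGF genes differed with fibroblasts in both directions. FGF5 had 35 counts in the coculture against 0 in the monoculture. It was at least 11.9-fold higher against the floor of 3 counts, with an exact lower limit of 9.16. FGF2 was 5.22-fold higher (41 against 8 counts, 2.41 to 12.9). FGF7, below 1 CPM in both, was at least 3.05-fold higher against that floor (9 counts against 0, exact lower limit 2.01). FGFR1 was 1.53-fold higher (1.32 to 1.77) and FGFR3 2.32-fold lower (56 against 132 counts, 1.68 to 3.22). FGFR2 had a fold of 0.424 whose interval, 0.117 to 1.29, included 1, and FGFR4 a fold of 0.988 (0.771 to 1.27). FGFBP1 was at 0 in both libraries and has no fold.

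Among 5 measured members, FGF2 and FGF5 (2 genes) were at least 2-fold higher and FGFR3 (1 gene) was at least 2-fold lower, where 4.56% and 3.03% of 14119 genes were (7.59% in either direction). FGF2 and FGF5 reached 1 CPM only in the coculture, so they could not be counted as lower, and the count over measured members is a description. Fibroblast markers moved with these values: in LNCaP coculture all 18 measured ones passed 2-fold, and their median log2 fold was 5.65 (5.42 where a gene at 0 is replaced by its bound). Only COL3A1, COL5A1 and LOX of these reached 1 CPM in LNCaP monoculture, so the others could not be counted as lower. Which cells held the FGF2, FGF5, FGF7 and FGFR1 RNA was not tested, and in bulk RNA fewer cells of a type and less RNA per cell cannot be told apart, which also bears on FGFR3. The list of PC-3 markers also moved: of 4 measured in LNCaP tissues, 3 passed 2-fold upwards with fibroblasts (CD44 with 776 against 1 count, VIM with 5239 against 1559 and PLAU with 20 against 0) and 0 downwards, with EGFR within 2-fold. The median log2 fold of these 4 was 2.63 (2.27 at the bound). The keratins KRT7 and KRT81 of that list were near 0, with 2 and 1 counts in LNCaP coculture and 0 and 2 in LNCaP monoculture.

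FGF2 overlaps NUDT6 on the opposite strand over 804 exonic bases, 11.9% of the exonic bases of FGF2, and the library kit does not mark strand. NUDT6 had 135 counts in LNCaP coculture and 169 in LNCaP monoculture, a fold of 0.813 (0.644 to 1.03). The part of reads from the shared bases in the FGF2 values was not tested. The other overlaps among the members covered at most 2.27% of a gene's exonic bases.

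In PC-3 tissues the same genes mostly differed little with fibroblasts. FGFR4 was 1.58-fold higher in the coculture (206 against 133 counts, 1.26 to 1.98), and it was the only member whose interval lay apart from 1. FGF2 had a fold of 0.918 (0.803 to 1.05), FGFBP1 of 1.00 (0.869 to 1.15) and FGFR1 of 0.953 (0.852 to 1.07). FGF5 had a fold of 0.685 (39 against 58 counts, 0.444 to 1.05), FGF7 of 2.38 (7 against 3 counts, 0.543 to 14.2) and FGFR3 of 1.27 (5 against 4 counts, 0.274 to 6.42). FGFR2 was at 0 in both. Of 5 members measured, 0 were at least 2-fold higher and 0 at least 2-fold lower, where 2.22% and 1.01% of 14417 genes were (3.23% in either direction). Among fibroblast markers 11 of 18 passed 2-fold upwards here, and the median log2 fold was 2.45. Of these 11, only COL3A1 and COL6A3 reached 1 CPM in PC-3 monoculture, so the others could not be counted as lower.

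**Figure D4:**
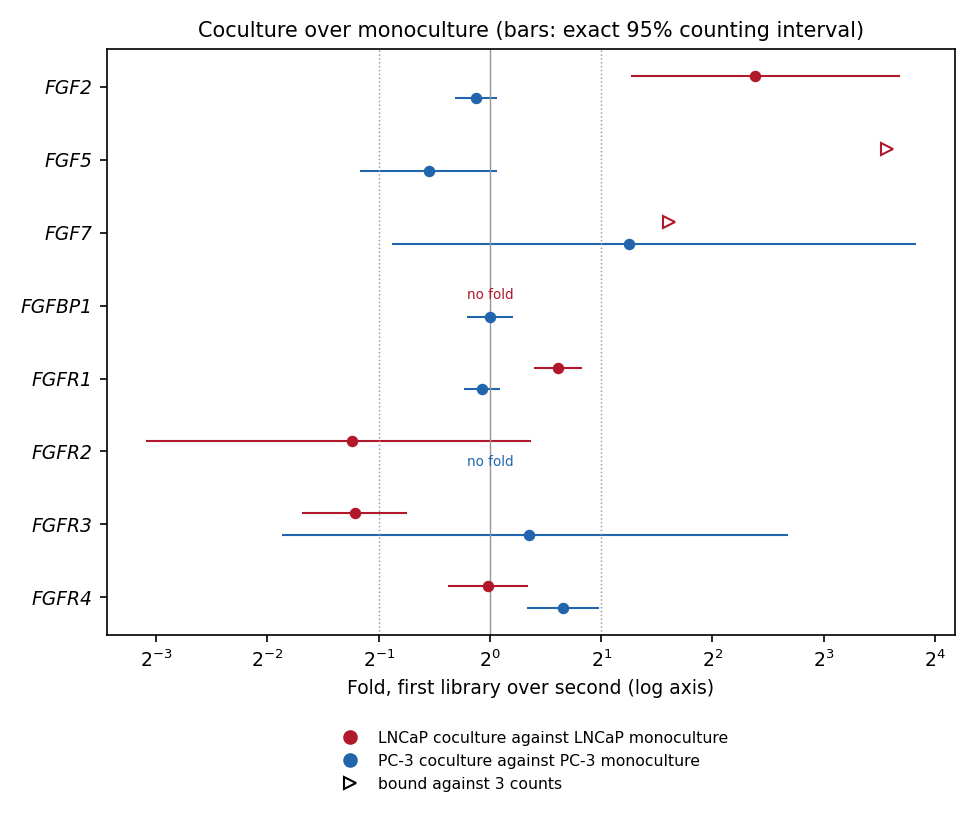
Fold of coculture over monoculture for each gene on a log axis, LNCaP above PC-3 in each row, with exact 95% counting intervals; open triangles are bounds against 3 counts, and dotted lines mark 2-fold. FGF2 and FGF5 were higher and FGFR3 lower in LNCaP tissues, whereas FGFR4 was 1.58-fold higher in PC-3 tissues.

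The coculture difference itself was set against the other line by subtracting log2 folds, LNCaP minus PC-3. It was 2.25 for FGF2 (delta-method counting interval 1.24 to 3.26), 0.68 for FGFR1 (0.41 to 0.94) and -0.67 for FGFR4 (-1.13 to -0.20). For FGFR3 it was -1.42, and the interval of -3.06 to 0.21 included 0, with 5 and 4 counts in the PC-3 libraries. The difference for FGF5, 4.75 (2.62 to 6.88), depends on the prior count, since 1 library was at 0.

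Among coreceptors, decoys and other binding proteins, 1 of 8 measured was at least 2-fold higher and 3 lower in LNCaP than in PC-3 monoculture, near the shares over all genes (22.1% and 23.6%), with a median log2 fold of 0.02. FGFRL1, a receptor-like protein without a kinase domain, had 4216 counts in LNCaP coculture, 4123 in LNCaP monoculture, 828 in PC-3 coculture and 832 in PC-3 monoculture. It was 5.14-fold higher in LNCaP in coculture (4.77 to 5.55) and 5.01-fold higher in monoculture (4.65 to 5.40), with little difference by fibroblasts in either line. ANOS1, a matrix protein that modulates FGFR1 signalling, was 27.8-fold lower in LNCaP than in PC-3 coculture (17.2 to 48.2) and 242-fold lower between the monocultures (66.7 to 2007, from 2 counts). FLRT2, a membrane protein of a family that interacts with FGF receptors, was higher with fibroblasts in both lines, 24.9-fold in LNCaP (49 against 2 counts, 6.55 to 212) and 8.40-fold in PC-3 (33 against 4 counts, 2.99 to 32.7). Of 9 of these genes measured in each line, 2 were at least 2-fold higher and 1 lower in LNCaP coculture (4.56% and 3.03% of all genes), and 1 was higher and 0 lower in PC-3 coculture (2.22% and 1.01%). The higher ones, FLRT2 and ANOS1 in LNCaP and FLRT2 in PC-3 tissues, reached 1 CPM only in the coculture, and the lower one only in the monoculture. None of them could be counted in the other direction. At 5 CPM or more 0 were left in any of these counts. The lower one in LNCaP was FLRT1 (12 against 33 counts, 2.70-fold lower, 1.36 to 5.74).

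Of the other FGF ligands, 5 of 15 listed had a row in the table and only FGF1, which binds all FGF receptors, reached 1 CPM. FGF1 had 4 counts in LNCaP coculture, 0 in LNCaP monoculture, 100 in PC-3 coculture and 99 in PC-3 monoculture. It followed the line as FGF2 did, being 24.7-fold lower in LNCaP than in PC-3 coculture (9.37 to 92.6). Between the monocultures it was at least 32.6-fold lower against the floor of 3 counts (exact upper limit of the ratio 0.0384). FGF17, FGF18, FGF21 and FGF22 had 13 counts or fewer in every library. FGFBP3, another carrier, differed little from line to line, with 74 counts in LNCaP coculture, 90 in LNCaP monoculture, 82 in PC-3 coculture and 70 in PC-3 monoculture.

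Feedback inhibitors and transcription targets of FGF and ERK signalling were much lower in LNCaP than in PC-3 tissues, and part of them were higher in LNCaP coculture than in its monoculture. These genes are induced by ERK activity from any receptor, so they do not report on FGF receptors alone. Of 20 measured, 16 were at least 2-fold lower in LNCaP than in PC-3 monoculture and 3 at least 2-fold higher (SPRY3, ETV1 and EGR1, named after their values were seen). Of all genes 23.6% were lower and 22.1% higher. SPRY4, ETV4, ETV5 and FOSL1 were below 1 CPM in LNCaP monoculture, and SPRY3 and EGR1 in PC-3 monoculture. Each of these could be counted in 1 direction only. The median log2 fold was -2.91 for the list and 0.04 for all genes. Between the cocultures the same numbers, 16 and 3, were reached, beside 23.6% and 20.7% of all genes. The median there was -2.50 against 0.01 for all genes. ETV4, an ETS transcription factor, had 17 counts in LNCaP coculture, 3 in LNCaP monoculture, 2819 in PC-3 coculture and 3050 in PC-3 monoculture. SPRY4, a Sprouty inhibitor of the receptor-to-ERK pathway, had 47, 12, 4272 and 4941 counts in the same libraries.

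With fibroblasts, 9 of these 20 genes passed 2-fold upwards and 0 downwards in LNCaP tissues, where 4.56% and 3.03% of all genes did, and the median log2 fold was 0.79 against 0.00 for all genes. FOSL1, ETV5, ETV4 and SPRY4 reached 1 CPM only in the coculture and so could not be counted as lower. FOSL1, an AP-1 subunit, had 73 counts against 5 and was 14.9-fold higher (6.09 to 47.1). ETV5, the closest relative of ETV4, had 27 against 1 (27.5-fold, 4.53 to 1125), PHLDA1 459 against 73 (6.40-fold, 4.99 to 8.31) and IER3, an early response gene, 122 against 20 (6.21-fold, 3.85 to 10.5). The other 5, named after their values were seen, were SPRY2, SPRY4, DUSP6 (a phosphatase of ERK), ETV4 and EGR1, with log2 folds of 1.18 to 2.23. EGR1 was also 3.63-fold higher in LNCaP than in PC-3 coculture (2.84 to 4.68), whereas SPRY2, the nearest of the other 8 to its PC-3 level, had a fold of 0.0875. The part of the fibroblasts' own RNA in these differences was not tested, and the marker sums were 985 CPM with and 11.1 CPM without them. When a level of 5 CPM was asked for, 4 of the 9 were left and the median log2 fold of the list was 0.26.

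In PC-3 tissues 1 of 19 measured genes of that list, EGR1, was at least 2-fold higher with fibroblasts (84 against 7 counts, 12.2-fold, 5.68 to 31.3) and 0 lower. EGR1 reached 1 CPM only in PC-3 coculture and so could not be counted as lower. Of all genes 2.22% were higher and 1.01% lower. The median of the list was -0.05 on the log2 scale, against 0.00 for all genes. FOSL1 had 7246 counts in PC-3 coculture and 8538 in PC-3 monoculture, and DUSP6 2835 and 2849. EGR1 was thus the listed gene that was at least 2-fold higher with fibroblasts in both lines, since it had 302 counts in LNCaP coculture and 64 in LNCaP monoculture.

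**Figure D5:**
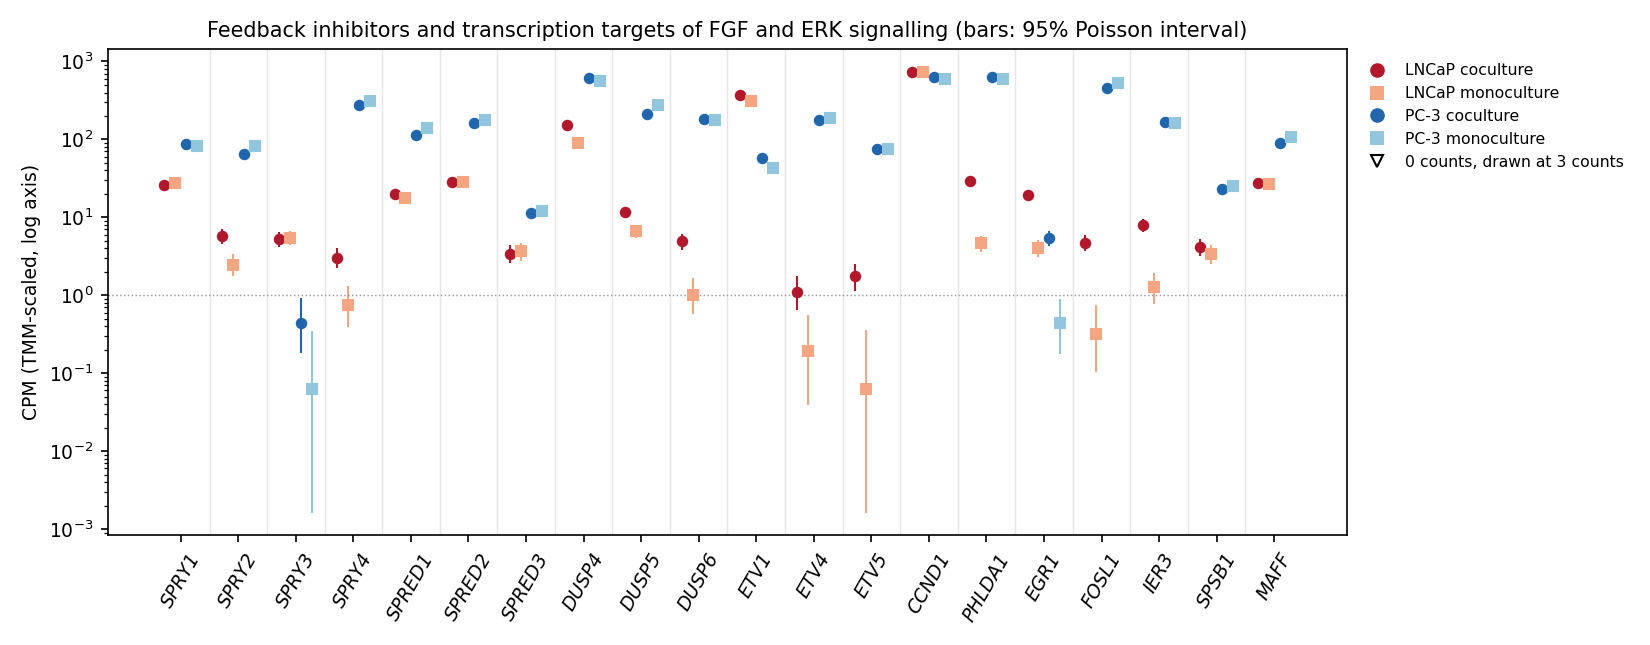
Level in CPM, on a log axis, of 20 feedback inhibitors and transcription targets of FGF and ERK signalling, 1 point per library with its 95% Poisson interval; the dotted line is 1 CPM. Most genes were lower in LNCaP than in PC-3 libraries, and 9 were at least 2-fold higher in LNCaP coculture than in LNCaP monoculture.

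Heparan sulphate genes, which make and trim the sugar chains that hold FGFs, showed 1 gene that differed alike by fibroblasts in both lines. SULF1, which removes sulphate groups from heparan sulphate outside cells, was 16.0-fold higher in LNCaP coculture (63 against 4 counts, 5.96 to 60.7) and 14.3-fold higher in PC-3 coculture (112 against 8 counts, 6.99 to 33.8). SULF2, a related enzyme, had 13 counts in LNCaP coculture, 5 in LNCaP monoculture, 8438 in PC-3 coculture and 6479 in PC-3 monoculture. Of 23 listed genes measured in each line, 2 were at least 2-fold higher in LNCaP coculture (SULF1 and HS3ST3A1), 1 in PC-3 coculture (SULF1) and 0 lower in either, where 4.56% and 2.22% of all genes were higher. SULF1 and HS3ST3A1 were below 1 CPM in the monocultures and so could not be counted as lower. At 5 CPM or more the LNCaP count was 0. Between the monocultures 5 of 23 passed 2-fold upwards and 10 downwards in LNCaP, or 3 and 10 with DESeq2 size factors, beside 22.1% and 23.6% of all genes. GPC3, a glypican, was 28.9-fold higher (12.1 to 90.4), HSPG2, the core protein perlecan, had 792 against 10749 counts, and EXT1, a chain polymerase, was 17.4-fold lower (14.1 to 21.6).

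The pattern over the 4 libraries was also set against that of the 13007 genes with at least 5 CPM in their highest library, as the root mean square difference of centred log2 CPM. FGF2 was closest to AMPD3 (0.01), an AMP deaminase gene with 45 counts in LNCaP coculture, 9 in LNCaP monoculture, 469 in PC-3 coculture and 509 in PC-3 monoculture, and next to POPDC3 (0.09). FGFBP1 was closest to LINC00520 (0.04) and SLCO1B3 (0.07), FGFR1 to TEX261 (0.04) and NQO1 (0.05), FGFR4 to ZNF670 (0.06) and LARGE2 (0.06), and FGFR3 to LOC100505938 (0.16) and LOC285097 (0.23). FGFR3 thus had no neighbour as near as those of the other members, and with 4 libraries such likeness is a description only. FGF5, FGF7 and FGFR2 were below 5 CPM in every library and were not compared.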

How the data were processed

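Total RNA of 4 tissue samples, 1 library a group, went into libraries made with the TruSeq RNA v2 kit, as the labels' protocols say. The authors deposited a table of estimated counts by gene symbol without depth scaling. Per the submitters' processing notes, FastQC, STAR, Partek and hg38 were used, and their roles, versions, annotation, strand setting and filters are not given in the sources used here. Values were rounded to whole counts (33.7% to 34.1% were not whole) and scaled with TMM factors (edgeR 4.0.16, R 4.3.3). No sample was dropped or imputed.

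With 1 library a group no test was run, and the depth of 15520243 to 15865690 counts limits precision. Levels carry exact Poisson intervals and folds exact conditional binomial intervals, all at 95%. They cover counting error alone, since the reads carry no molecular identifiers. A gene at 0 is bounded at 3 counts per library, and pairs of libraries with 3 counts or fewer get no fold. Such a bound is not a 95% limit. Log2 folds used a prior count of 2, and calls needed 2-fold and at least 1 CPM in 1 of the 2 libraries. A gene that reached 1 CPM in only 1 of the 2 libraries could thus be counted in 1 direction only. The code was tested on simulated Poisson counts with changes seeded only in genes with many counts, so that test does not cover members at low counts.

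The members, the 8 pathway lists and the 6 marker lists were chosen with earlier results of these data known. Named genes were all members and, per list and comparison, at most 4 genes with the largest log2 fold past 2-fold and at least 20 counts, and the 2 genes nearest to each member in pattern. Marker genes and any further list genes were named after their values were seen. Lengths and positions came from GENCODE 29 on GRCh38 (16580 genes matched by symbol), and promoters from RefSeq GRCh38.p14. Alternatives were library totals, DESeq2 1.42.0 size factors, other count filters, other prior counts and unrounded values. Python 3.11.15, numpy 2.4.6, pandas 2.3.3, scipy 1.17.1 and matplotlib 3.10.9 did the rest.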

Additional observations from a re-analysis of the deposited data

Results flagged for a closer look

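In 4 members the fitted log2 folds of coculture over monoculture had opposite signs in the 2 lines, and the counting interval of their difference (LNCaP minus PC-3) left out 0. In each of the 4 the fold of 1 line could not be told from 1, so opposite directions are not shown: PC-3 for FGF2, FGF5 and FGFR1, and LNCaP for FGFR4. With 1 library a group the difference between the lines was not tested. For FGF2 it was 2.25, from log2 folds of 2.13 in LNCaP and -0.12 in PC-3 tissues. For FGF5 it was 4.75, from 4.23 and -0.52, with 0 counts in LNCaP monoculture. For FGFR1 it was 0.68, from 0.61 and -0.07. For FGFR4 it was -0.67, from -0.02 in LNCaP and 0.65 in PC-3 tissues. Fibroblast markers summed to 985 CPM in LNCaP coculture and 11.1 in LNCaP monoculture, and to 932 CPM in PC-3 coculture and 412 in PC-3 monoculture, and their part in these differences was not tested.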

How the results depend on the processing

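Counts over all genes depended on the low-count filter. With no filter 1286 genes passed 2-fold upwards and 753 downwards in LNCaP coculture, and 906 and 440 in PC-3 coculture; at 5 CPM or more these were 240 and 154, and 87 and 21, against 644 and 428, and 320 and 146, at 1 CPM or more. At 5 CPM or more 0 members were at least 2-fold higher in LNCaP coculture, because FGF2 and FGF5 were below that level there, and 0 in LNCaP against PC-3 coculture. With no filter 2 members were higher in LNCaP monocultures and 2 in LNCaP cocultures against those of PC-3, FGFR2 being added to FGFR3. The median of the intracellular FGF homologous factors between the cocultures was 1.33 at 5 CPM or more and -2.32 at 1 CPM or more, and at the higher level FGF13 was the only gene left. Member levels stayed within their counting intervals under all 96 repeats with another scaling or without rounding, and 144 of 148 repeats of member folds did. The other 4 were FGF5 and FGFBP1, with a library at 0, at a prior count of 5. A count filter does not change the fold of a gene, so the fold repeats under other filters could not differ. TMM factors were 0.996 to 1.01, so leaving them out could move a level only slightly. No replicate could be left out. No paired analysis was possible because each group had 1 library.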

Other observations

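Intracellular FGF homologous factors, which are not secreted and bind sodium channels, also differed between the lines. FGF13 had 110 counts in LNCaP coculture, 141 in LNCaP monoculture, 43 in PC-3 coculture and 57 in PC-3 monoculture, and was 2.58-fold higher in LNCaP in coculture (counting interval 1.80 to 3.77) and 2.50-fold higher in monoculture (1.83 to 3.46). FGF11 was 9.57-fold lower in LNCaP than in PC-3 coculture (4.14 to 27.1) and 6.57-fold lower between the monocultures (3.73 to 12.5). FGF14 had 2 and 0 counts in LNCaP coculture and monoculture, against 18 and 33 in PC-3 coculture and monoculture. With fibroblasts, 0 of the measured genes of this list (1 in LNCaP and 3 in PC-3 tissues) reached 2-fold, beside 7.59% and 3.23% of all genes in either direction.

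Of 12 adaptors that link FGF receptors to their pathways, 0 were at least 2-fold higher and 4 lower in LNCaP than in PC-3 monoculture, and the same numbers were reached between the cocultures, beside 22.1% and 23.6% of all genes in monoculture and 20.7% and 23.6% in coculture. The exchange factor gene SOS1 was 3.01-fold lower in coculture (2.73 to 3.32) and 2.81-fold lower in monoculture (2.55 to 3.10). With fibroblasts 0 of the 12 reached 2-fold in either line, beside 7.59% of all genes in LNCaP and 3.23% in PC-3 tissues in either direction. Of 8 splicing regulators of the receptors, 1 was at least 2-fold higher and 2 lower in LNCaP than in PC-3 coculture, and 2 and 1 between the monocultures, where DESeq2 size factors gave 0 and 2 and then 1 and 1 because FUBP1 and ESRP2 lay close to 2-fold. These counts were near the shares over all genes, 44.3% in coculture and 45.7% in monoculture in either direction. ESRP1, a splicing regulator that favours the epithelial form of FGFR2, was 3.60-fold lower in LNCaP than in PC-3 coculture (3.38 to 3.82) and 3.44-fold lower between the monocultures (3.23 to 3.67), although FGFR2 itself was at 0 counts in both PC-3 libraries. Of the 7 export and shedding genes, 6 were measured in LNCaP and 7 in PC-3 tissues. MMP2, which is also in the fibroblast marker list, alone passed 2-fold with fibroblasts in either line. Of all genes 4.56% were at least 2-fold higher in LNCaP and 2.22% in PC-3 coculture. S100A13, which takes part in the release of FGF1, was 8.35-fold lower in LNCaP than in PC-3 coculture (6.93 to 10.1) and 7.46-fold lower between the monocultures (6.36 to 8.78).

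The other marker lists gave the following sums over their genes. Luminal prostate markers reached 13339 CPM in LNCaP coculture and 11118 in LNCaP monoculture, against 2479 in PC-3 coculture and 2557 in PC-3 monoculture, and general epithelial markers reached 2899.77, 2405, 4121 and 3912 CPM in the same libraries. The luminal sums of the PC-3 libraries were mostly KRT8, KRT18, HOXB13 and TMPRSS2, at 913, 574, 552 and 407 CPM in PC-3 coculture. The PC-3 list summed to 874 CPM in LNCaP coculture, 714 in LNCaP monoculture, 3098 in PC-3 coculture and 3327 in PC-3 monoculture. Most of the LNCaP sums was EGFR, at 484 CPM in LNCaP coculture and 615 in LNCaP monoculture. That gene went against the list, with 211 CPM in PC-3 coculture and 201 in PC-3 monoculture. Endothelial markers summed to 37.5, 12.1, 234.0 and 218 CPM. In PC-3 coculture and monoculture these sums were mostly KDR (163 and 168 CPM) and PECAM1 (69.6 and 50.5). VWF, TEK, CLDN5 and EMCN were at 0 in PC-3 monoculture. In LNCaP coculture and monoculture VWF held most of the sum (36.6 and 10.8 CPM). Blood and immune markers summed to 16.3, 5.00, 60.9 and 45.3 CPM, of which CD68 alone held 15.8, 4.24, 56.7 and 42.5. No endothelial or immune cell type is read from these sums.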
